A study of Mus musculus with 6 samples.

Results

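The 52 genes described here encode the machinery of mitosis and cytokinesis: the cyclin B and CDK1 kinase and its activators, mitotic kinases, spindle checkpoint proteins, kinetochore subunits, mitotic kinesins, spindle and midzone proteins, and proteins that shape mitotic chromosomes. They were chosen by name as a functional list, and all 52 were found among the 15861 genes of the count table. All 52 also passed the filter on low counts, which kept 10926 genes, and the lowest count of any member in any library was 110.

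Polyadenylated RNA had been sequenced from germinal centre B cells of C57BL/6 mice, sorted by surface staining for B220, GL7 and FAS. The 3 WT libraries came from Lsd1 f/f mice without Cre, and the 3 KO libraries from mice of genotype Cgamma-cre+/-; Lsd1 f/f. All 6 mice thus carried floxed Lsd1 alleles, and the groups differed by the Cre allele, so that effects of Cre and of the deletion cannot be told apart. The mice were littermates, 1 per library. Their age and immunisation are not stated in the labels, which give the driver of Cre only by the name Cgamma.

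Germinal centre B cells are among the fastest dividing cells of the adult mammal, and in the dark zone of the germinal centre they pass through repeated rounds of division. The genes of mitosis are transcribed mostly late in the cycle, in G2 and M. They are kept silent in resting cells by the DREAM complex and switched on by B-MYB and FOXM1, all of which act through a shared core called MuvB. MuvB binds a short promoter element, the cell cycle genes homology region (CHR), which often lies a few helical turns downstream of boxes with the letters CCAAT that bind NF-Y. In bulk RNA a lower share of cells in G2 and M and less of such RNA per cell cannot be told apart.

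Promoters of several members are printed here because they show these letters, which many but not all of the members hold. RefSeq promoter sequences (GRCm38.p6, 250 bases before to 50 after the annotated start) were matched by symbol for 42 of the 52 genes. The genes without an entry were Aurkb, Ccna2, Cdc25c, Dlgap5, Foxm1, Incenp, Kif20a, Smc4, Spc24 and Tpx2. The stretches below end at the base before the start and run 5′ to 3′ on the strand of the gene. Capitals mark the CHR motif (TTTGAA or TTCGAA, or TTCAAA where TTTGAA lies on the other strand) and the CCAAT box (CCAAT, or ATTGG on the other strand).
Cdk1, chr10:69352913-69353032, minus strand: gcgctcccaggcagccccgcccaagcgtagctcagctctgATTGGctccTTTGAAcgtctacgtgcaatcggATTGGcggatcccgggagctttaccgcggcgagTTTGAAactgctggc
Cdc20, chr4:118437344-118437463, minus strand: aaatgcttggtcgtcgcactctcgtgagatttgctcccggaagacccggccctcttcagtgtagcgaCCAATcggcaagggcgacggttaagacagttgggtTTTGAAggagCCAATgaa
Top2a, chr11:99024190-99024309, minus strand: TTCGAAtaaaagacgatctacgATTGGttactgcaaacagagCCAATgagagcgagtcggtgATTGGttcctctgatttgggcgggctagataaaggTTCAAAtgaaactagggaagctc
Mki67, chr7:135716380-135716499, minus strand: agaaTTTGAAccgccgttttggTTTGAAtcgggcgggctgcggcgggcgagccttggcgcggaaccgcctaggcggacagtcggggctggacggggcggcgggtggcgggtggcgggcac
Kif11, chr19:37376262-37376381, plus strand: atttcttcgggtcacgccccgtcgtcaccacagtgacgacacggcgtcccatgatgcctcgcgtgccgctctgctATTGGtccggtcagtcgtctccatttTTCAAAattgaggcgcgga

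In Aurka, Plk1, Bub1 and Cenpa the match lies just past the annotated start, and 30 bases around it are shown, with the motif in capitals.
Aurka, chr2:172370521-172370550, minus strand: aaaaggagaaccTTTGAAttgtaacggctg
Plk1, chr7:122159453-122159482, plus strand: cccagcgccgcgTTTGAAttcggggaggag
Bub1, chr2:127831828-127831857, minus strand: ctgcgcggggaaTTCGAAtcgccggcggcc
Cenpa, chr5:30666890-30666919, plus strand: ggcgggtgatttTTTGAActgctggcgacc

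Among the 42 genes with a sequence, 34 (81.0%) held a CHR match in the whole window on either strand. The share was 16.6% of 8638 tested genes and 21.7% of the 27025 genes of the promoter table. The 8 members without a match were Birc5, Ccnb1, Cenpe, Mad2l1, Ncaph, Nek2, Nuf2 and Nusap1, which says only that these letters were not in this window. In a narrower window, from 60 bases before to 30 after the start, 26 of the 42 (61.9%) held a match against 4.09% of tested genes. That window was set after the positions had been seen. The members' promoters had 47 CHR matches, of which 30 started inside it.

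CCAAT boxes were found in 32 of the 42 (76.2%), against 43.7% of tested genes. The share was 76.2% for other G2 and M regulators, 64.0% for other spindle and cytokinesis genes and 60.6% for genes of G1/S and S phase. It was 61.8% for other kinetochore genes, 41.7% for cohesin and condensin genes and 35.3% for the anaphase promoting complex. Both motifs occurred together in 29 (69.0%), against 6.96% of tested genes, while Mad2l1, Nuf2, Birc5, Nusap1 and Ncaph held neither. In 28 genes a CHR match lay downstream of a CCAAT box, with a median start-to-start distance of 31.5 bases to the nearest one. Of 70 CCAAT matches 68 started upstream of the annotated start, whereas the CHR matches straddled it. Restricting the search to the 250 bases before the start left a CHR match in 42.9% of members, 14.8% of tested genes and 58.3% of the cohesin and condensin genes.

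For a CHR match in the whole window, the count was 34 of 42 members. In other cell cycle lists it was 7 of 12 cohesin and condensin genes and 15 of 34 other kinetochore genes. It was 11 of 25 other spindle and cytokinesis genes and 9 of 21 other G2 and M regulators. For subunits and regulators of the anaphase promoting complex it was 4 of 17, and for 33 genes of G1/S and S phase it was 7. These are counts of letters, not sites of binding, and no test was made of the differences.

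**Figure D1:**
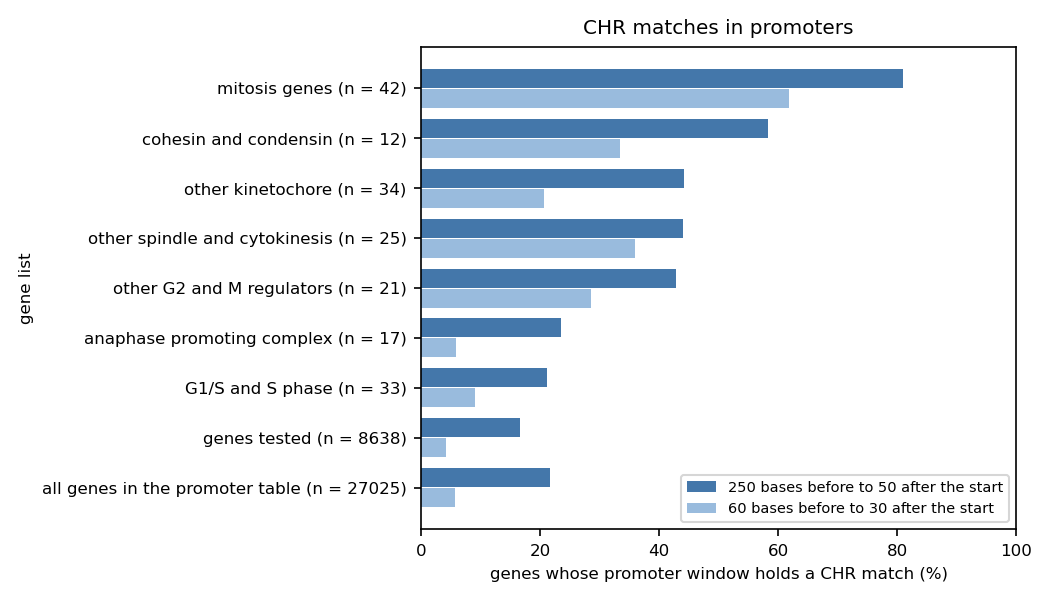
Share of genes (x axis, percent) whose RefSeq promoter holds a CHR match, for each gene list (y axis, with the number of genes that had a sequence), in the full window (dark bars) and close to the start (light bars). The 42 members with a sequence stand at 81.0% and 61.9%, the genes tested at 16.6% and 4.09%. The window close to the start was set after the members' positions had been seen.

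Depth was 3390805 to 5524852 counts in WT and 12325300 to 14327654 in KO, so each KO library was deeper than each WT library. Levels are CPM, counts scaled by the TMM library size. Kdm1a, the gene that the older name Lsd1 stands for, was read at 134, 85.2 and 92.6 CPM across WT libraries and 81.9, 33.0 and 21.8 across KO libraries. Its log2 fold change was -1.19, which did not reach the threshold of 0.05 (adjusted p = 0.393 by edgeR). Without KO 1 it was -1.93 (adjusted p = 0.0169 by edgeR). The library labelled KO 1 was near the lowest WT library, and without TMM scaling, at 87.5 CPM, it lay inside the WT range. The counts cover the whole gene and not the floxed part alone. Of the B cell markers, Cd79a, Cd79b, Ms4a1 and Ptprc were abundant in all libraries, as were Bcl6, Fas, S1pr2, Gcsam and Rgs13 of germinal centre cells, while Mef2b had at most 6 counts. Between the genotypes 10 of the 11 tested markers of this list had a fold change below 0, with a median of -0.25 in log2, and 0 passed (edgeR). At an unadjusted p under 0.05, 3 were lower and 0 higher, where 5.5% and 7.1% of tested genes were. The list's mean level relative to WT was -0.54, -0.04 and -0.20 in KO 1, KO 2 and KO 3. It was -0.33, 0.30 and 0.03 in WT 1, WT 2 and WT 3. The 15 macrophage markers were all detected, and their unscaled CPM added up to 376, 1255 and 2625 across WT libraries and 293, 234 and 2687 across KO libraries. Of the T cell markers, Cd3d and Cd3g never exceeded 15 counts and Cd8a never exceeded 1. Others of that list were detected in every library: Cd2 at 107 to 169 and Lck at 149 to 241 unscaled CPM, and Cd4 at 8 to 152 counts. Naive and memory B cell markers stood 1.81, 0.78 and 0.54 log2 units above the WT mean in KO 1, KO 2 and KO 3. Of these 12 markers 5 lay above WT in all KO libraries, against 10% of tested genes. Their median log2 fold change was 1.32, with 11 above 0, and 0 passed (edgeR, smallest adjusted p = 0.137). At an unadjusted p under 0.05, 6 were higher and 0 lower, against 7.1% and 5.5% of tested genes. The part of these marker differences in the results below was not tested.

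The comparison asks whether deletion of the demethylase gene goes with a different level of the division machinery. None of the 52 genes passed when p-values were adjusted over the whole table (edgeR, quasi-likelihood, smallest adjusted p = 0.349). Of all tested genes 0.0824% passed, and Kdm1a, the targeted gene, was not among them. The median log2 fold change of the list, KO over WT, was -0.03, beside 0.01 over all 10926 genes, with 24 members above and 28 below 0. Single values ran from -0.55 for Cdc25b to 0.50 for Kif14, and 34 of 52 lay within 0.2 of 0.

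The intervals bound the differences that these libraries leave room for. The 95% interval of the fold change lay within 2-fold in either direction for 44 members, against 58.3% of all tested genes, and within 1.5-fold for 10. It reached past 2-fold for Cdc25b, Cenpe, Cenpf, Kif20b, Mki67, Ncapg, Smc2 and Smc4. A difference of up to 2-fold is therefore not shown to be absent for most members, and one beyond it lies outside the interval of 44. The tested genes were not matched to the members for level, and no member had fewer than 110 counts in a library.

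At an unadjusted p under 0.05, 1 member was higher in KO, against 7.1% of tested genes, and 2 were lower, against 5.5%. All 3 KO libraries lay above all 3 WT libraries for 2 members, Ccna2 and Kif14, where 10% of tested genes did so. All KO libraries lay below WT for 5, Cdc25b, Aurka, Bub3, Kif22 and Kif2c, where 7.95% did so. DESeq2 and limma-voom passed 0 of the 52 as well, with 5 and 2 at an unadjusted p under 0.05, where 13% and 11.3% of all tested genes were. At the adjusted threshold no member passed in any of the 16 alternatives run.

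**Figure D2:**
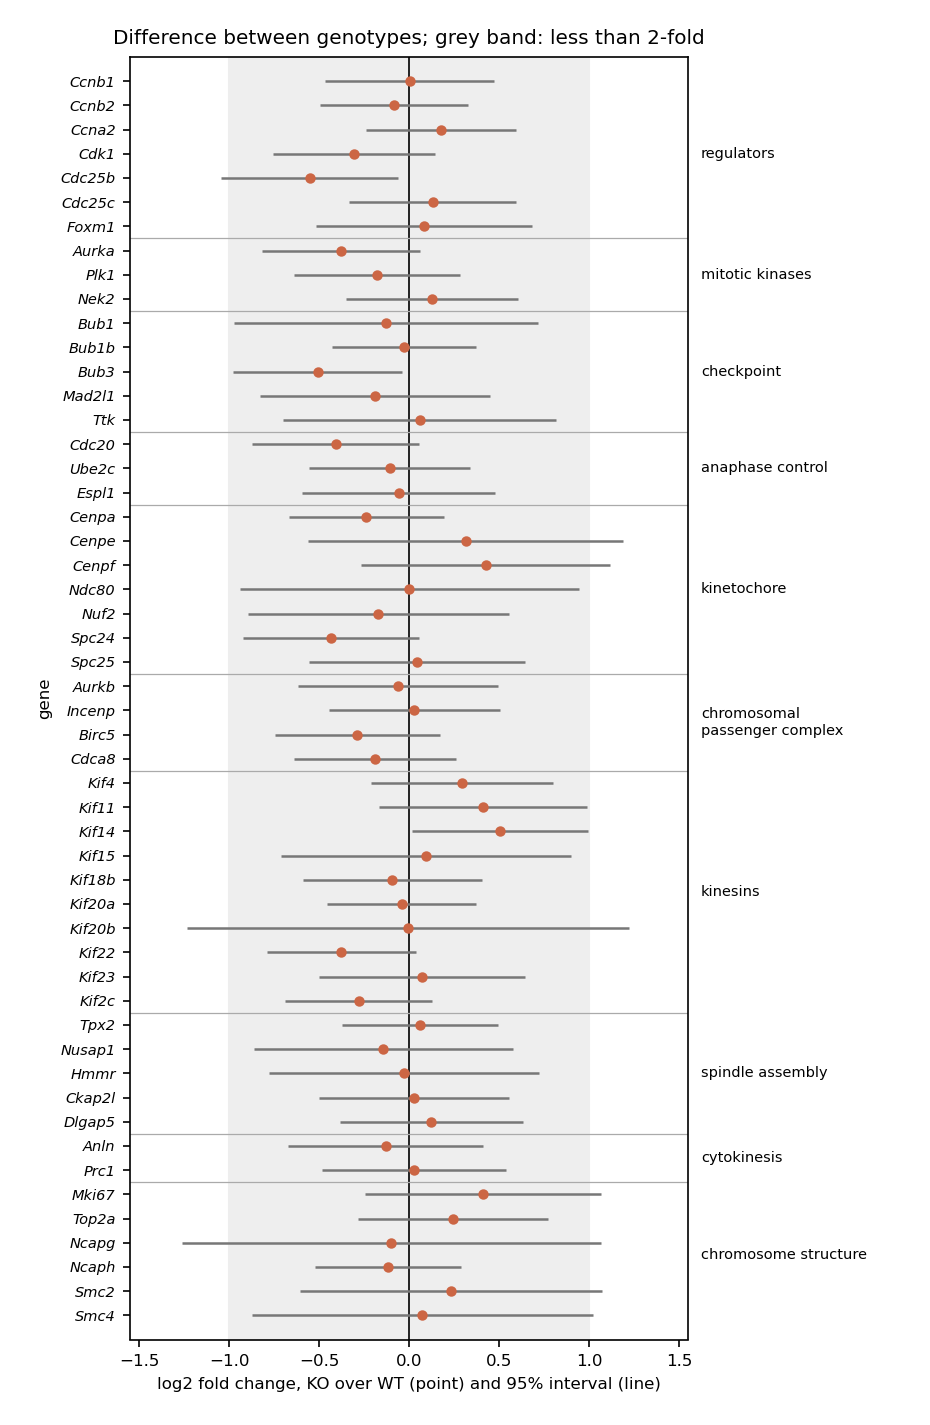
Log2 fold change of each of the 52 genes, KO over WT (points, x axis), with 95% intervals from the edgeR fit (lines), genes in rows by role. Values lie between -0.55 and 0.50, and 44 of the 52 intervals stay inside the grey band of less than 2-fold.

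The entry into mitosis is driven by cyclin B bound to CDK1. Ccnb1, the main mitotic cyclin, was read at 126, 187 and 131 CPM across WT libraries and 152, 153 and 141 across KO libraries. The KO libraries lay inside the WT range, and the difference was 0.00385 in log2 (SE 0.21). Its transcript shares 42.1% of its 50-base words with other annotated genes, among them its pseudogene Ccnb1-ps, so reads of the gene could have been assigned elsewhere. Ccnb2, the second B cyclin, had 291 ± 13.5 CPM in WT and 275 ± 29.6 in KO (SD, n = 3 each). Ccna2, the cyclin of S phase and early mitosis, had 354, 355 and 294 CPM across WT libraries and 414, 363 and 356 across KO libraries. Its groups did not overlap, by a margin of under 2 CPM, and the difference was 0.18 in log2 (SE 0.19, adjusted p = 0.746 by edgeR).

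Cdk1, the kinase itself, stood at 332, 421 and 333 CPM across WT libraries and 286, 343 and 250 across KO libraries. The groups overlapped through KO 2, and the log2 fold change was -0.31 (95% interval -0.76 to 0.14). Cdc25b, a phosphatase that activates CDK1 at the start of mitosis, was lower in each KO library: 713, 516 and 744 CPM across WT libraries against 360, 510 and 475 across KO libraries. This was the lowest fold change of the list, -0.55 on the log2 scale (SE 0.22), with an unadjusted p of 0.0303 and an edgeR adjusted p of 0.349. Without the library labelled KO 1 it was -0.43. Cdc25c, a phosphatase of the same family, had 45.1 ± 5.12 CPM in WT and 49.5 ± 6.63 in KO. Foxm1, the transcription factor that drives many of these genes, was read at 174, 106 and 105 CPM across WT libraries and 179, 100.2 and 129 across KO libraries, with 1 high library in each group.

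The mitotic kinases had small differences of either sign. Aurka, which matures centrosomes and the spindle poles, had 188, 162 and 187 CPM across WT libraries and 131, 161 and 121 across KO libraries. KO 2 nearly touched WT 2, and the difference was -0.38 in log2 (SE 0.20, adjusted p = 0.461 by edgeR). Plk1, a kinase of mitotic entry and spindle assembly, spread from 193 to 303 CPM in WT and from 214 to 226 in KO, inside the WT range. Nek2, a centrosomal kinase, differed by 0.13 in log2 (SE 0.22).

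The spindle checkpoint delays anaphase until all kinetochores are attached. Bub3, the adaptor that docks BUB1 and BUBR1 to the kinetochore, was the member of this group with the lowest fold change. It was read at 528, 583 and 636 CPM across WT libraries and 334, 507 and 388 across KO libraries. The groups did not overlap, and the difference was -0.51 in log2 (SE 0.21, unadjusted p = 0.0360, adjusted p = 0.358 by edgeR). Bub1b, which encodes BUBR1, was at 318 ± 25.0 CPM in WT and 312 ± 11.3 in KO, a log2 fold change of -0.03. Bub1 itself was read at 65.7, 201 and 94.1 CPM across WT libraries and 124, 110 and 97.9 across KO libraries, so that the WT libraries differed 3.06-fold among themselves while the KO libraries stayed between them. Mad2l1, the inhibitor of CDC20, and Ttk, the kinase that starts the checkpoint signal, had the same pattern in WT, with WT 2 at 2.10 and 2.76 times WT 1.

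Exit from mitosis needs CDC20, the activator of the anaphase promoting complex. Cdc20 was read at 435, 338 and 435 CPM across WT libraries and 267, 368 and 274 across KO libraries, with a log2 fold change of -0.41 (SE 0.21, adjusted p = 0.448 by edgeR). WT 2 and KO 2 are the libraries through which the groups overlap. Ube2c, the ubiquitin-conjugating enzyme of that complex, had -0.11 (SE 0.20), and Espl1, the protease separase that cuts cohesin, -0.06 (SE 0.24).

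At the kinetochore the signs were mixed. Cenpa, the histone H3 variant of centromeres, had 219 ± 15.4 CPM in WT and 186 ± 25.0 in KO (log2 fold change -0.24, SE 0.20). Spc24, a subunit of the NDC80 complex, had 132, 104 and 131 CPM across WT libraries and 83.5, 114 and 74.3 across KO libraries (log2 fold change -0.43, SE 0.22). The other subunits of that complex gave other values: -0.17 for Nuf2, 0.04 for Spc25, and for Ndc80 84.7 ± 44.8 CPM in WT against 85.0 ± 27.3 in KO. Cenpf, a large coiled-coil protein of the outer kinetochore, had the highest fold change of the group, 0.43 (SE 0.31). It was read at 74.1, 137 and 77.6 CPM across WT libraries and 181, 113 and 94.5 across KO libraries. Without KO 1 its log2 fold change was 0.10, and without WT 2 it was 0.77. Cenpe, the kinesin that moves chromosomes to the spindle equator, spread from 107 to 260 CPM in WT and from 138 to 307 in KO.

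The chromosomal passenger complex corrects faulty attachments and later acts in cytokinesis. Aurkb, its kinase, was at 262, 132 and 183 CPM across WT libraries and 209, 165 and 179 across KO libraries, with all KO values inside the WT range. The scaffold gene Incenp differed by 0.03 in log2 (SE 0.22) and Cdca8, which encodes borealin, by -0.19 (SE 0.21). Birc5, which encodes survivin, had 247, 302 and 221 CPM across WT libraries and 217, 238 and 176 across KO libraries (-0.29 in log2, SE 0.21, adjusted p = 0.597 by edgeR).

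The 10 kinesins held both the highest value of the list and several low ones. Kif14, a kinesin of the cytokinetic midbody, was read at 36.2, 39.9 and 34.3 CPM across WT libraries and 62.8, 41.5 and 52.3 across KO libraries. The groups did not overlap, although KO 2 was within 2 CPM of WT 2, and the difference was 0.50 in log2 (SE 0.22, unadjusted p = 0.0451, adjusted p = 0.385 by edgeR). Kif14 was also the member with the lowest level per length, 4.12 CPM per kilobase of transcript in WT. Kif11, which slides spindle microtubules apart, had 172, 336 and 224 CPM across WT libraries and 398, 310 and 266 across KO libraries. Its log2 fold change was 0.41 (SE 0.26) with all libraries, 0.20 without WT 1 and 0.71 without WT 2.

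A pair of other kinesins lay lower in every KO library, by less than 1.5-fold. Kif22, a chromosome-arm motor, had 256, 232 and 272 CPM across WT libraries and 192, 212 and 182 across KO libraries (-0.38 in log2, SE 0.19, adjusted p = 0.440 by edgeR). Kif2c, which depolymerises microtubules at centromeres, had 161 ± 5.29 CPM in WT and 133 ± 9.65 in KO, a log2 fold change of -0.28 (SE 0.19). The midzone motor gene Kif20a (-0.04), the centralspindlin subunit gene Kif23 (0.07) and Kif18b (-0.09) had values near 0, while Kif4, a chromokinesin gene, had 0.29 (SE 0.23).

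With all libraries, spindle assembly and cytokinesis genes had log2 fold changes from -0.14 to 0.12. When a library was left out, their medians ran from -0.18 to 0.29 for spindle assembly and from -0.22 to 0.18 for cytokinesis. Tpx2, which activates Aurora A on the spindle, had 0.06 (SE 0.20), Dlgap5 0.12 and Ckap2l 0.03. Nusap1, a microtubule-bundling protein gene, was at 192, 494 and 294 CPM across WT libraries and 337, 322 and 230 across KO libraries, with all KO libraries inside the WT range (log2 fold change -0.14, SE 0.32). Anln, which encodes the contractile ring scaffold anillin, had -0.13 (SE 0.25), and Prc1, the bundler of midzone microtubules, 0.03 (SE 0.23). Reads of Prc1 and Kif20a are less certain, since 26.6% and 31.2% of their 50-base words also occur in other genes. For Kif20a that gene is Cdc23, which overlaps it on the other strand, and for Prc1 these are the overlapping Rccd1 together with Gm13176 and Gm2788, and whether strand was used in counting is unknown here.

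Mki67, the proliferation marker whose protein coats mitotic chromosomes, had the highest CPM of the list in every library and was set apart by a single library. It was read at 887, 1256 and 1055 CPM across WT libraries and 2153, 1055 and 1040 across KO libraries. KO 1 stood far above the other KO libraries, which lay inside the WT range. The log2 fold change was 0.41 (SE 0.30, adjusted p = 0.597 by edgeR) and -0.03 without KO 1. Top2a, the topoisomerase that untangles sister chromatids, had 689, 1162 and 854 CPM across WT libraries and 1269, 1041 and 892 across KO libraries (log2 fold change 0.24, SE 0.24). Condensin folds chromosomes for mitosis, and its subunits Smc2, Smc4 and Ncapg spread widely in WT. Smc2 was at 97.4, 280 and 166 CPM, Smc4 at 195, 613 and 321, and Ncapg at 79.6, 320 and 116. Their KO values were 278, 196 and 166 for Smc2, 506, 391 and 291 for Smc4, and 167, 152 and 163 for Ncapg. Ncaph, a subunit of the same complex, was steady in contrast, at 222, 224 and 218 CPM across WT libraries and 220, 195 and 197 across KO libraries.

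**Figure D3:**
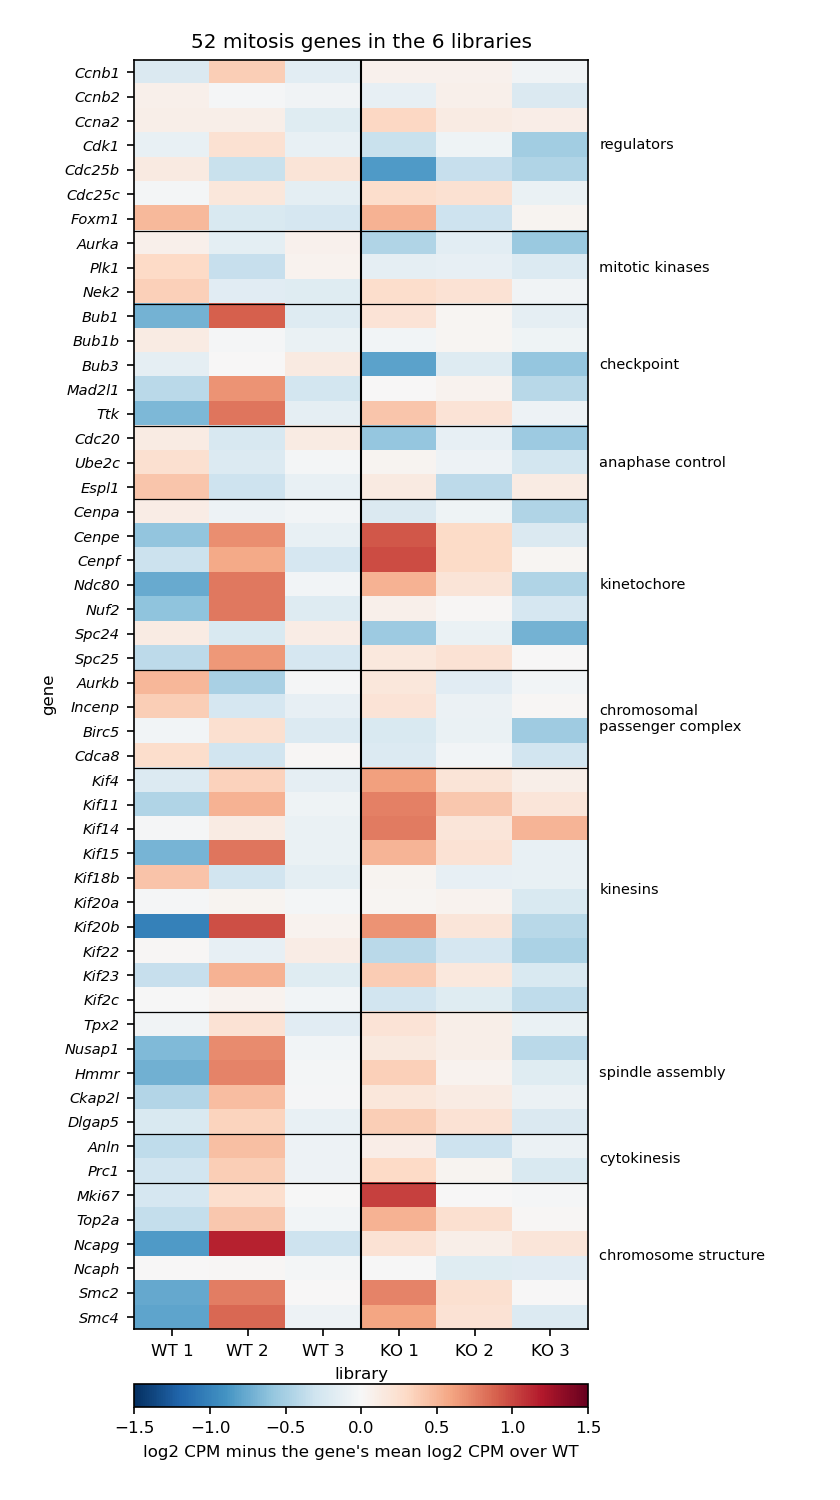
Level of each gene (rows, by role) in each library (columns), as log2 CPM minus the gene's mean over the WT libraries (colour, red above and blue below). The largest contrasts lie between WT 1 and WT 2, and Mki67 is high in KO 1.

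Per kilobase of the longest coding transcript, levels in WT ran from 4.12 CPM for Kif14 to 224 CPM for Cdc20. Cdc25b (213), Ccnb2 (190), Top2a (173) and Bub3 (171) followed Cdc20. Mki67, first by CPM, was twelfth on this scale at 106 CPM per kilobase, because its transcript spans 10061 bases. Neighbours in this order were not tested against each other.

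The 52 genes together took 1.14, 1.32 and 1.11% of the counts in WT and 1.497, 1.21 and 1.13% in KO. The groups overlapped, with KO 1 highest and KO 3 second to lowest. Without Mki67 the shares were 1.05, 1.201 and 1.01% in WT and 1.27, 1.10 and 1.02% in KO. The mean log2 level of the members, relative to the WT mean, was -0.18, 0.26 and -0.08 in WT and 0.17, 0.03 and -0.18 in KO, so the groups overlapped. Within KO, 34 members were highest in KO 1 and 40 were lowest in KO 3, where 36.9% and 32.7% of tested genes were so.

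The spread between WT 1 and WT 2 followed the base composition of the transcripts. WT 2 stood above WT 1 by up to 4.02-fold (Ncapg) and below it down to a ratio of 0.505 (Aurkb). Of the 52 genes 21 were at least 1.5 times higher in WT 2 than in WT 1 and 6 at least 1.5 times lower. Across the 52 genes, whose transcript GC content ran from 39.4 to 56.1%, the log2 ratio of WT 2 to WT 1 had a Pearson correlation of -0.91 with GC content (Spearman -0.93). Over 10419 tested genes with a transcript it was -0.61 (Spearman -0.66). Within KO, the log2 ratio of KO 1 to KO 3 had a correlation of -0.54 with GC content and 0.52 with log2 transcript length across the members, and 0.03 and -0.03 over all tested genes. These are descriptions across genes that share the same libraries, and genes are not independent replicates.

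The 26 members with the lower GC content, up to 46.5%, were all higher in WT 2, by a median of 1.05 log2 units. Of the 26 with the higher GC content 17 were lower in WT 2, and their median was -0.20. Smc4, Ncapg, Kif20b, Smc2 and Bub1 belong to the first set, and Aurkb, Foxm1, Plk1, Espl1 and Kif18b to the second. The standard errors had a median of 0.30 in the lower and 0.21 in the upper set. The wide intervals of Kif20b (-1.23 to 1.22) and Ncapg (-1.26 to 1.06) come with WT 2 levels 3.95 and 4.02 times those of WT 1.

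Between the genotypes the correlation with GC content was closer to 0. The fold change had a correlation of -0.35 with GC content (Spearman -0.30) and 0.59 with log2 transcript length (Spearman 0.52) across the members, beside -0.32 and 0.32 over all tested genes. The long transcripts of Kif14, Cenpf and Mki67 were among those with the highest fold changes. The part of length and GC content in these differences was not tested beyond the alternative fit that follows.

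**Figure D4:**
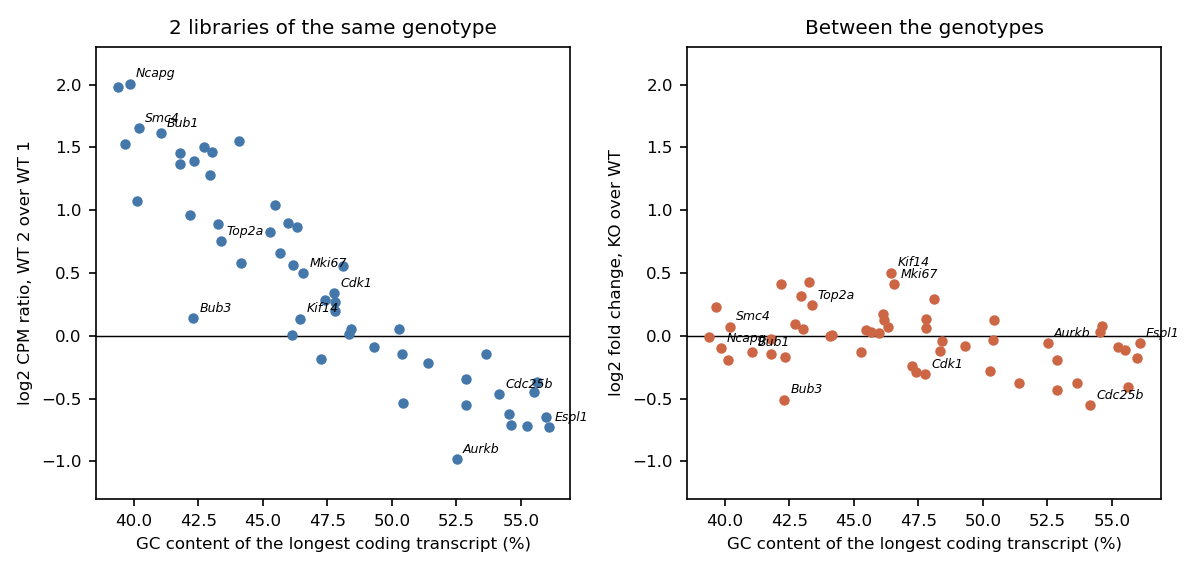
GC content of the longest coding transcript (x axis, percent) of the 52 genes against the log2 CPM ratio of WT 2 to WT 1 (left) and against the log2 fold change of KO over WT (right), 1 point per gene. In the left panel the ratio goes from about 2 at the lowest GC content to below 0 for the members above 50% except Kif2c, at 0.05, while the right panel stays between -0.55 and 0.50.

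When a spline trend on GC content and length was removed from each library, an alternative added after the data had been seen, the members' median SD went from 0.33 to 0.21 log2 units within WT and from 0.22 to 0.25 within KO. Their median SE went from 0.23 to 0.17. The median log2 fold change was then -0.12, beside -0.04 over the 10419 genes of that fit, with 13 members above and 39 below 0 and values from -0.81 (Bub3) to 0.12. None passed (edgeR, smallest adjusted p = 0.228), and 7 had an unadjusted p under 0.05, all of them lower in KO, where 6.94% of the genes in that fit were. Those 7 were Bub3, Cdk1, Cdc25b, Birc5, Mad2l1, Anln and Kif2c. Cdk1 differed by -0.51 in log2 (SE 0.19) and Mad2l1 by -0.52 (SE 0.20) in that fit. Kif14 was no longer among them, and Mki67 stood at -0.00020. Such a trend also takes out any difference between genotypes that runs with length or GC content.

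The sign of the list's median changed with single libraries. It was 0.22 without WT 2, beside 0.06 over all genes, and -0.15 without KO 1, beside -0.01. Without WT 2, 13 members had an unadjusted p under 0.05, where 22.1% of all genes in that fit did. Without KO 1, 0 members did, where 7.74% of all genes did. Leaving out WT 2 put kinetochore genes at a median of 0.45 and kinesins at 0.44, against 0.0000428 and 0.03 with all libraries. Scaling by library totals alone moved the median of all genes to 0.13 and that of the list to 0.10, with 37 of 52 above 0, so the members kept about the same distance to the other genes.

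Mitosis genes outside the list were counted in the same way. Of 37 further kinetochore genes in the table, 15 had a fold change above 0, the median was -0.06, and 0 passed. Cenpx, a small subunit of the inner kinetochore, had the largest difference of these, 80.4, 98.9 and 104 CPM across WT libraries and 56.5, 61.4 and 46.1 across KO libraries (-0.79 in log2, SE 0.21, adjusted p = 0.203 by edgeR). DESeq2 passed Cenpx, at an adjusted p of 0.0392. Cenpm, also of the inner kinetochore, had -0.47 (SE 0.21).

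Of 17 other cohesin and condensin genes 9 were above 0, with a median of 0.03, and the condensin II subunits Ncaph2 and Ncapg2 had values of opposite sign. Ncaph2 had 409, 398 and 548 CPM across WT libraries and 257, 349 and 254 across KO libraries (-0.66 in log2, SE 0.22, adjusted p = 0.284 by edgeR). Ncapg2 had 73.0, 144 and 75.1 CPM across WT libraries and 187, 128 and 159 across KO libraries (0.70 in log2, SE 0.28, adjusted p = 0.350 by edgeR), with WT 2 among the KO values. Neither passed.

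Subunits and regulators of the anaphase promoting complex lay mostly below 0, 15 of 18, with a median of -0.25. Anapc11, its RING subunit, had the lowest value, -0.53 (SE 0.22, adjusted p = 0.351 by edgeR). Among 29 other spindle and cytokinesis genes 18 were above 0, with a median of 0.03. Tubg1, which encodes gamma-tubulin, had -0.59 (SE 0.22) and Arhgap11a, a RhoA regulator of cytokinesis, 0.57 (SE 0.24). Of 28 other G2 and M regulators 11 were above 0, with a median of -0.12. Rbbp4, a histone chaperone and MuvB subunit, had 970, 1190 and 1166 CPM across WT libraries and 612, 858 and 715 across KO libraries (-0.61 in log2, SE 0.21, adjusted p = 0.296 by edgeR).

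Of the 42 genes of the G1/S and S phase list 36 had a fold change below 0, the median was -0.23, and 9 were lower in all KO libraries, beside 28 of 52, -0.03 and 5 of 52 for the mitosis genes. Of all tested genes 51.3% were above 0 and 7.95% were lower in all KO libraries. With library totals alone the median of the S phase list was -0.12, where that of all genes was 0.13. No gene of it passed (edgeR, smallest adjusted p = 0.203), and whether the lists differ was not tested. Pold1, the catalytic subunit of DNA polymerase delta, had 403, 312 and 491 CPM across WT libraries and 226, 235 and 223 across KO libraries (log2 fold change -0.82, SE 0.21), and passed by DESeq2 (adjusted p = 0.0178). Mcm5, a subunit of the replicative helicase, had -0.69 (SE 0.23). The mean level of the S phase genes, relative to the WT mean, was within 0.03 of 0 in each WT library and -0.21, -0.15 and -0.36 across KO libraries. With library totals in place of TMM it was 0.07, -0.02 and -0.05 across WT libraries and -0.06, -0.11 and -0.21 across KO libraries.

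**Figure D5:**
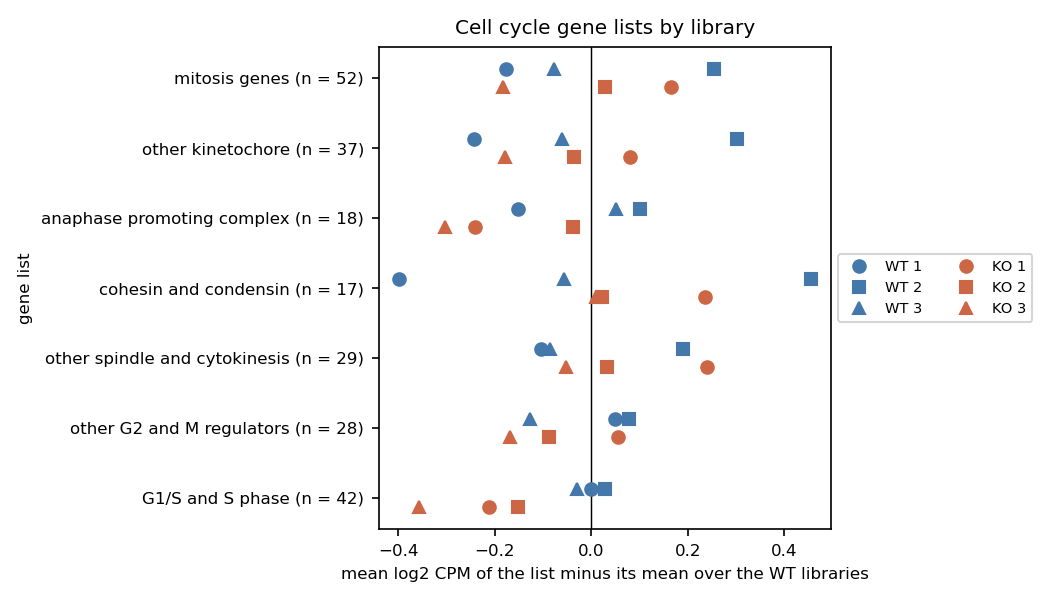
Mean log2 CPM of each cell cycle list minus its mean over WT (x axis) in each library (symbols, WT blue and KO orange), lists in rows with the number of genes. The mitosis genes overlap between the groups, from -0.18 to 0.26 in WT and from -0.18 to 0.17 in KO, while all KO libraries lie below WT for G1/S and S phase.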

How the data were processed

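The values are raw counts of reads for each gene symbol, as the authors deposited them, in 6 columns that stand for 6 mice. The submitters' processing notes name CASAVA, STAR 2.5.2, featureCounts 1.5.2 and build mm10. Annotation, strand setting and multimapping rule: not given in the sources used here. Groups and replicate numbers came from the sample titles.

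The counts were tested across all genes with edgeR 4.0.16 in R 4.3.3 (filterByExpr, TMM, robust glmQLFit and glmQLFTest, two-sided, Benjamini-Hochberg over 10926 genes, threshold 0.05). Standard errors were derived from the F statistic, with moderated degrees of freedom for intervals. List means use log2 CPM with a prior count of 2. A single read equals 0.181 to 0.295 unscaled CPM in WT libraries, 0.0698 to 0.0811 in KO libraries. Within each group every pair of libraries differed beyond sampling noise (chi-square per degree of freedom 14.4 to 50.9). Transcript length and GC content came from the longest coding transcript in GENCODE vM21 (mm10), for 10419 of the genes tested. The fits, DESeq2 1.42.0 and limma 3.58.1 included, were first run on simulated data.

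The members and lists were chosen with earlier results of these data known. Members named were 13 in any case (Ccnb1, Cdk1, Aurka, Aurkb, Plk1, Bub1, Cdc20, Cenpa, Top2a, Mki67, Foxm1, Birc5 and Kif11), any with an adjusted p under 0.05, those with an unadjusted p under 0.05, and the highest and lowest fold change of each role. Of each other list, up to 2 genes were named, those with the largest absolute fold change at an unadjusted p under 0.05. Of the other members some were named after their values were seen, and so were the promoters of Top2a, Mki67 and Kif11, where the match lies before the start.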

Additional observations from a re-analysis of the deposited data

How the results depend on the processing

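None of the 52 mitosis genes passed in any of the 16 alternatives (edgeR, DESeq2 or limma-voom), while the calls over all genes went from 9 to 18 with library totals alone, 93 with no filter, 122 with DESeq2, 16 after thinning to the smallest total, 37 with the length and GC trend removed, and between 1 (without WT 2 or WT 3) and 24 (without KO 1) when a library was left out. Whether the replicate numbers pair the mice is not given by the labels, and deviations of same-numbered libraries correlated at 0.34, -0.05 and 0.44, so that not every pair was above 0.1. With a replicate block 21 genes passed over all genes, 0 of them mitosis genes. The list's median log2 fold change ran from -0.15 (without KO 1) to 0.22 (without WT 2). Members changed sign, and the cause was not tested. Some of these were not near 0 with all libraries, such as Mki67 (0.41), Top2a (0.24) and Ccna2 (0.18). The values below cover only members named by the rule given above. Others changed sign as well, such as Ncapg (-0.44 without WT 1 and 0.72 without WT 2) and Smc4 (-0.24 and 0.62). With DESeq2 size factors and with DESeq2, Ccnb1 was -0.0318 and -0.0326, Incenp -0.00775 and -0.00763, and Prc1 -0.0108 and -0.0112. With library totals, Bub1 was 0.0119, Espl1 0.0576, Aurkb 0.0484, Anln 0.00282 and Ncaph 0.00274. Bub1 was 0.0147 with limma-voom and 0.0239 with the replicate block. With the trend removed, Ccnb1 was -0.16, Ccna2 -0.0105, Plk1 0.0343, Ttk -0.0710, Aurkb 0.0486, Dlgap5 -0.10, Prc1 -0.15, Mki67 -0.00020 and Top2a -0.0739. Leaving out a library gave ranges of -0.11 to 0.21 for Ccnb1, -0.17 to 0.34 for Foxm1, -0.43 to 0.47 for Bub1, -0.23 to 0.57 for Ttk, -0.21 to 0.16 for Espl1, -0.27 to 0.20 for Aurkb, -0.0928 to 0.22 for Incenp, -0.42 to 0.28 for Nusap1, -0.00767 to 0.31 for Dlgap5, -0.31 to 0.13 for Anln, -0.12 to 0.23 for Prc1 and -0.0301 to 0.59 for Mki67. Depth limits the WT libraries most, and no member had fewer than 110 counts.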

Other observations

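Germinal centre B cells divide in the dark zone and are selected in the light zone, and the marker lists of both zones held no gene that passed. Of 8 dark zone markers 3 had a fold change above 0, with a median of -0.14 in log2, and their mean level relative to WT was 0.19, 0.01 and -0.20 across WT libraries and -0.23, -0.11 and -0.08 across KO libraries. Of 10 light zone markers 6 lay above 0, with a median of 0.16. No gene of either list passed (edgeR, smallest adjusted p = 0.389 and 0.446). At an unadjusted p under 0.05, 1 dark zone marker was lower and 0 light zone markers differed. Of all tested genes 7.1% were higher and 5.5% lower at that threshold. Plasma cell markers stood at 0.72, -0.07 and 0.64 across KO libraries, against 0.12, -0.13 and 0.01 across WT libraries, and 0 of the 9 tested passed. At an unadjusted p under 0.05 (edgeR), 3 of the 9 were higher and 0 lower, where 7.1% and 5.5% of tested genes were. All KO libraries lay above WT for 2 of them, where 10% of tested genes did so.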
